A study of Mus musculus with 18 samples.

Results

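The cytotoxic effector genes of killer lymphocytes were followed as 10 genes, Gzma, Gzmb, Gzmk, Prf1, Fasl, Nkg7, Eomes, Tbx21, Ifng and Klrg1, in the ileum of 18 mice after an allogeneic bone marrow transplant. A member was any probe set whose platform annotation gave exactly that gene symbol. All 10 genes had 1 such probe set each, out of 41345 probe sets and 22180 named genes on the array. The recipients were B10.BR mice, 8 to 12 weeks old at transplant, that were irradiated with 11 Gy the day before. All of them received 5000000 marrow cells depleted of T cells from wild-type C57Bl/6 donors, whose tissue type differs from that of B10.BR. One arm received this marrow only, and the other had 2000000 purified T cells of the donor strain added, which makes it a model of graft-versus-host disease, where grafted lymphocytes injure the host's organs. From the day before transplant until the ileum was taken on day 21, mice of each arm were given either 150 mg/kg indole-3-carboxaldehyde (ICA), an indole made from tryptophan, or vehicle (20% DMSO, 40% PEG400 and 2% citric acid) by daily gavage. The marrow-only arm held 4 vehicle and 5 ICA mice, and so did the T cell arm. Mice without irradiation and transplant were not analysed here, so each group carries both.

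Cytotoxic T cells and natural killer (NK) cells kill by releasing granules that hold perforin, which opens the membrane of the target cell, and granzymes, serine proteases that enter it. A separate route is Fas ligand on the killer cell, which engages the death receptor Fas on the target. The T-box transcription factors T-bet (Tbx21) and Eomes drive this programme, and killer cells also secrete interferon gamma. In the gut, such cells sit both in the lamina propria and among the epithelial cells. In a piece of ileum, fewer cells of a type and less RNA per cell cannot be told apart.

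Array signals are on a log2 scale, so a difference of 1 is a doubling, and levels are read between mice for 1 gene, never between genes. The median of an array lay between 6.47 and 6.51. Markers of ileal epithelium had a mean level between 12.05 and 12.31 in every mouse. Mouse 1 of the marrow-only ICA group and mouse 1 of the T cell ICA group correlated least with the other arrays of their own group (mean r = 0.9837 and 0.9846, against 0.9866 or more for the other 16), and results are also given without this pair where a call changes. The pair, called below the arrays that stood apart, was taken as the lowest by this measure, without a cutoff. With the arrays of all groups, marrow-only ICA mouse 1 had a mean r of 0.9862, above mice 2 and 3 of its group (0.984 each). On average the 10 members were 0.61 and 0.60 below their group means in the pair. Of the T cell markers, the CD3 chains are given here and the rest of the list at the end. The mean of the 3 measured CD3 chains of the T cell receptor complex (Cd3d, Cd3e and Cd3g) was 7.36 ± 0.37 (SD, n = 4) in marrow-only vehicle mice and 7.96 ± 0.60 (SD, n = 5) in marrow-only ICA mice. It was 8.58 ± 0.44 (SD, n = 4) in T cell vehicle mice and 8.58 ± 0.36 (SD, n = 5) in T cell ICA mice.

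The 250 bases before the transcription start of the 3 granzyme genes are shown because these genes share a protein family and were not all called in the comparisons that follow. They are RefSeq sequences of the GRCm38.p6 build, given 5′ to 3′ on the strand of the gene, which is the minus strand for each of them. The intervals are chr13:113100982-113101231 for Gzma, chr14:56262335-56262584 for Gzmb and chr13:113180966-113181215 for Gzmk. Gzma and Gzmk lie close together on chromosome 13, and Gzmb lies on chromosome 14. Counted by the lower coordinate, which is the 3′ end of Gzma and Gzmk, 1 other listed gene falls between this pair. Capitals mark AGGTGT, the T-box motif that T-bet and Eomes can bind, or its complement ACACCT.
Gzma: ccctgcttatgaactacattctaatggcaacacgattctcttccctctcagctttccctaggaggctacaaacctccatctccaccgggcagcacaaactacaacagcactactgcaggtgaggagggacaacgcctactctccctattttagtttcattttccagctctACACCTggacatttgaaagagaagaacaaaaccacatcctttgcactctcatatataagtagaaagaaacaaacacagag
Gzmb: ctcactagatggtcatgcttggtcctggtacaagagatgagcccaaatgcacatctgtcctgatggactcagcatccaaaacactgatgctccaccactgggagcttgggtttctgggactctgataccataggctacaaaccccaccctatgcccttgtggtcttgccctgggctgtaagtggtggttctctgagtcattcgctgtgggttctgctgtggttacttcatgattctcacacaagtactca
Gzmk: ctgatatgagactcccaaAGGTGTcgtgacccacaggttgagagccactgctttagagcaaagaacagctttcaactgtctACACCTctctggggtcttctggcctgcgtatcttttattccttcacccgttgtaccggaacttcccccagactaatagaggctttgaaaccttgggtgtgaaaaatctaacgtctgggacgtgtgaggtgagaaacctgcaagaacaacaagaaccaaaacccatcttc
The motif was present 1 time before Gzma, beginning 80 bases before the start, and 2 times before Gzmk, beginning 232 and 169 bases before it. Neither orientation was present before Gzmb. In the RefSeq table, whose windows run from 250 bases before to 50 bases after the start, 9 of the 10 members had an entry. Of these, Gzma, Gzmk, Prf1 and Nkg7 (4 of 9) held the motif on either strand, against 13.7% of all 32851 promoters. These are matches of letters and not measured binding.

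The comparison of T cell with marrow-only mice asks which cytotoxic genes were higher in the ileum when donor T cells had been given. Averaged over both treatments (9 mice against 9), 6 of the 10 genes rose: Gzmk, Nkg7, Fasl, Eomes, Klrg1 and Prf1. Gzma, Gzmb, Tbx21 and Ifng did not pass. A gene is said to rise at an adjusted p under 0.05 in limma, with Benjamini-Hochberg adjustment over all 22180 genes. At that threshold 3.58% of all genes rose in the same comparison. Each treatment taken alone gave 3 genes: Gzmk, Fasl and Nkg7 under vehicle, where 0.794% of all genes rose, and Gzmk, Fasl and Eomes under ICA, where 1.05% rose. No member fell in these comparisons, while 0.681%, 2.07% and 3.62% of all genes fell under vehicle, under ICA and in the mean of both. The median difference of the 10 members was 0.80 under vehicle, 0.61 under ICA and 0.56 in the mean of both, against 0.01, -0.01 and 0.00 for all genes.

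**Figure D1:**
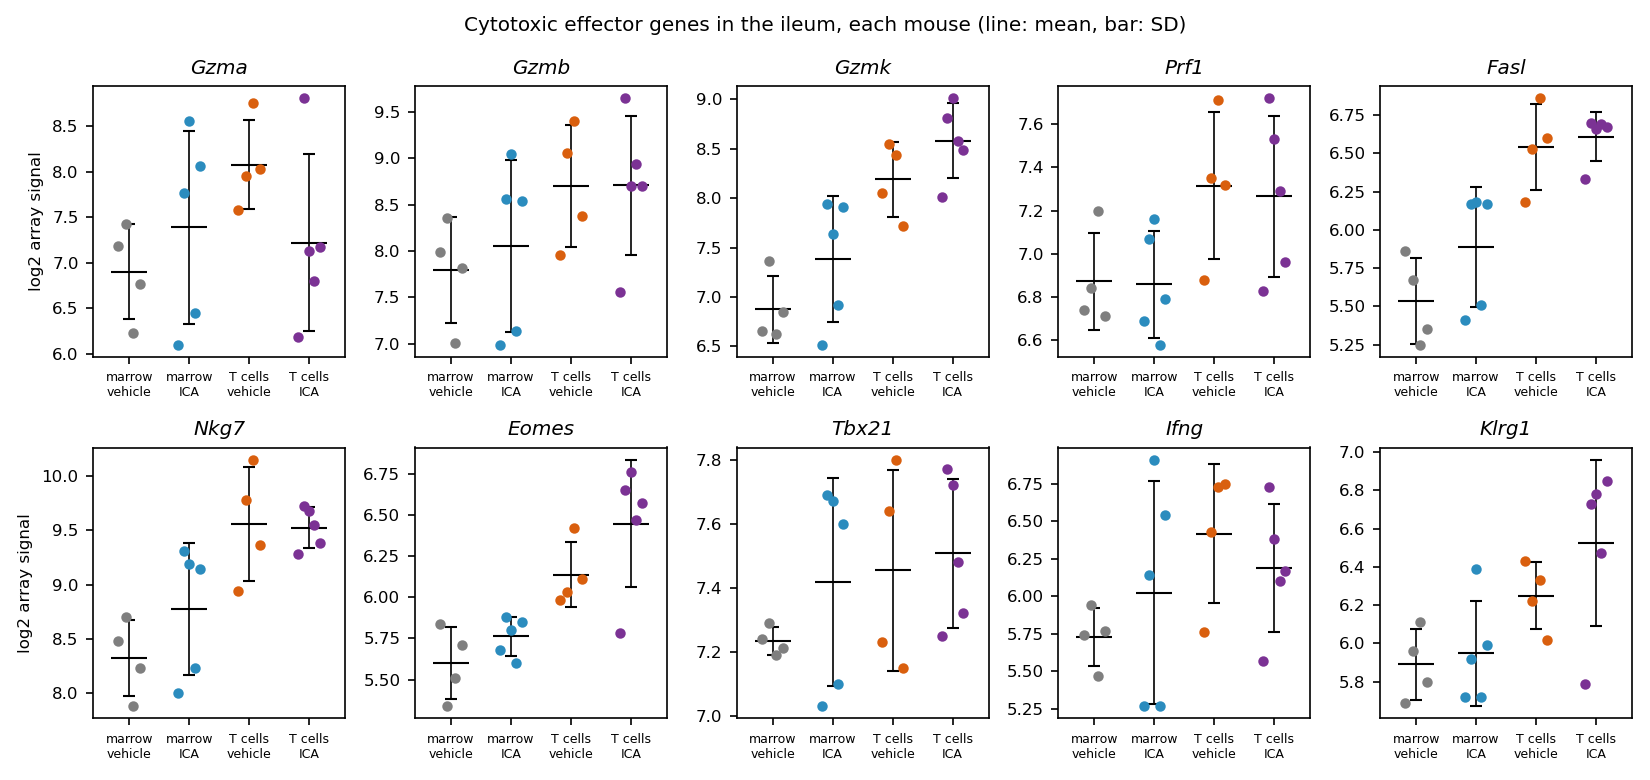
Log2 array signal of the 10 genes in each mouse (points) by group, with the group mean (line) and SD (bar). For Fasl all 9 T cell mice (6.18 to 6.86) lie above the marrow-only mice, the highest of which is equal to the lowest T cell mouse only after rounding, whereas the 4 groups overlap for Gzmb and Tbx21.

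Of the 3 granzymes, Gzmk, an enzyme with trypsin-like specificity, rose under both treatments, and Gzma and Gzmb passed under neither. It was at 6.66, 7.36, 6.63 and 6.85 in marrow-only vehicle mice and at 8.05, 8.55, 8.44 and 7.72 in T cell vehicle mice. It was at 6.52, 7.94, 7.64, 6.92 and 7.91 in marrow-only ICA mice and at 8.01, 8.81, 9.01, 8.58 and 8.49 in T cell ICA mice. Under each treatment every T cell mouse was above every marrow-only mouse, a separation that 6.33% of all genes showed upward under vehicle and 1.16% under ICA. Across treatments, T cell vehicle mouse 4 (7.72) lay within the range of marrow-only ICA mice. Gzmk rose by 1.31 ± 0.28 (SE) under vehicle, or 2.49-fold (limma adjusted p = 0.0189), and by 1.20 ± 0.25 under ICA, or 2.29-fold (adjusted p = 0.00909). In the mean of both it rose by 1.26 ± 0.19 (adjusted p = 0.00027). The order of its group means was marrow-only vehicle (6.88), marrow-only ICA (7.38), T cell vehicle (8.19) and T cell ICA (8.58). Neither step from vehicle to ICA passed the test.

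Gzmb, the granzyme that cleaves caspases, had a higher mean in T cell mice without passing. It was at 7.99, 8.36, 7.01 and 7.82 in marrow-only vehicle mice and at 7.96, 9.06, 9.41 and 8.38 in T cell vehicle mice. The ICA groups were at 6.99, 8.56, 9.05, 7.14 and 8.54 without T cells and at 7.56, 9.65, 8.70, 8.94 and 8.70 with them. All 4 groups overlapped. The difference was 0.91 ± 0.45 under vehicle (95% interval -0.03 to 1.85, limma adjusted p = 0.403) and 0.65 ± 0.40 under ICA (adjusted p = 0.449). The mean of both was 0.78 ± 0.30 (adjusted p = 0.135), and it passed only without T cell ICA mouse 1 (adjusted p = 0.0489). The standard deviation between mice of 1 group was 0.75 for Gzmb and 0.84 for Gzma, against 0.46 for Gzmk.

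Gzma, a granzyme of T and NK cells that cleaves after basic residues, had a higher mean with T cells in the vehicle arm and a lower one in the ICA arm, and neither difference passed. It was at 7.18, 7.43, 6.23 and 6.77 in marrow-only vehicle mice and at 7.58, 7.95, 8.76 and 8.03 in T cell vehicle mice, with no overlap. Under ICA it was at 6.10, 7.77, 8.56, 6.45 and 8.06 in marrow-only mice and at 6.18, 8.81, 7.13, 6.80 and 7.17 in T cell mice, so these groups overlapped across nearly their whole range. The difference was 1.18 ± 0.50 under vehicle (95% interval 0.14 to 2.22, limma adjusted p = 0.297) and -0.17 ± 0.45 under ICA (95% interval -1.10 to 0.76, adjusted p = 0.905). In a model of only the vehicle groups the first of these had an adjusted p of 0.0298. Without mouse 3 of marrow-only ICA or mouse 1 of T cell ICA the second turned to 0.12 or 0.09. The change of the T cell effect from vehicle to ICA, tested as an interaction, was -1.34 ± 0.67 and did not pass (unadjusted p = 0.058, adjusted p = 0.759).

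Of the other granzymes, which in the mouse lie beside Gzmb and include Gzmc, Gzmd, Gzmf, Gzmg and Gzmn as well as Gzmm elsewhere in the genome, 6 were measured. None of these 6 rose or fell in the mean T cell effect, and their differences ran from -0.15 ± 0.15 for Gzmg to 0.02 ± 0.06 for Gzmm (adjusted p of 0.479 or more in limma). All 6 had group means below the lowest array median of 6.47. Those of Gzmm ran from 6.11 to 6.22, and the others were very dim, with group means from 3.02 (Gzmd) to 4.89 (Gzmn). Whether RNA of these dim genes was detected at all was not tested, so the lack of a call does not show a lack of response. Gzmb, Gzmc and their neighbours are related in sequence, and how far their probe sets take up each other's RNA was not tested.

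**Figure D2:**
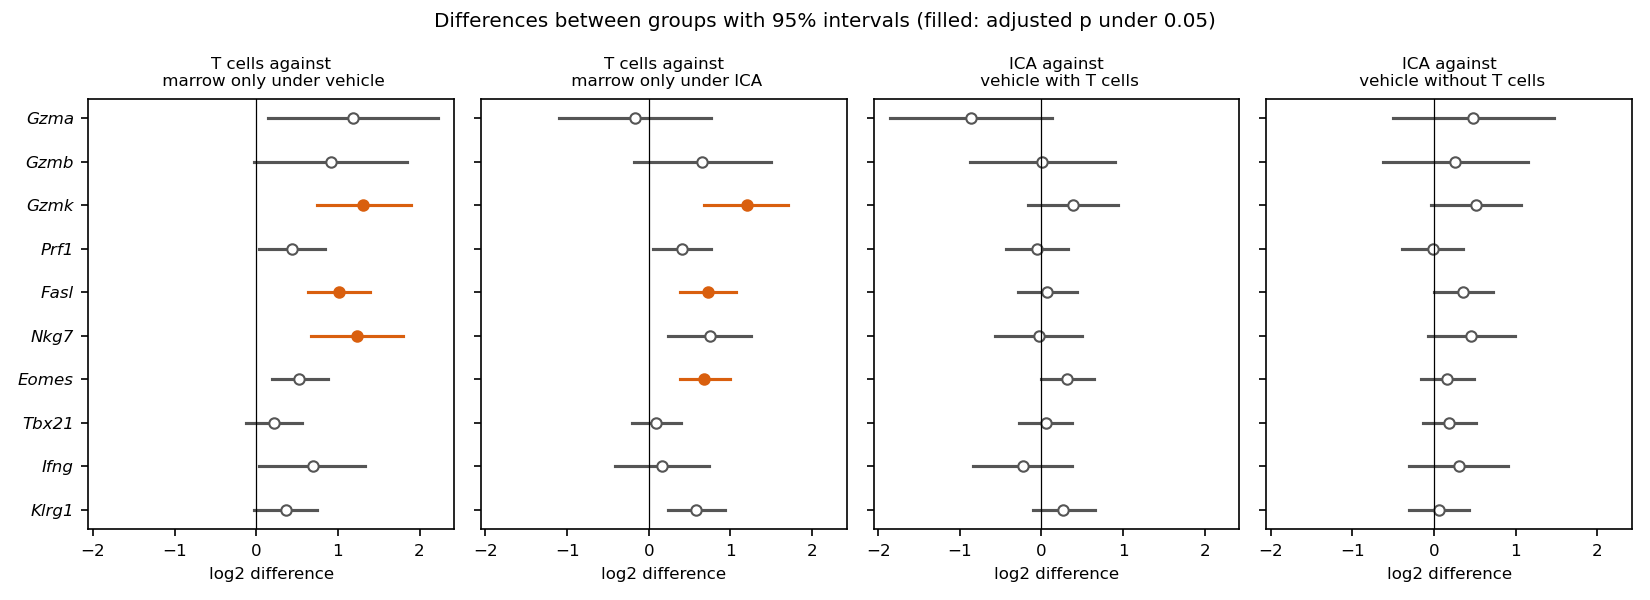
Log2 differences between groups for each of the 10 genes with 95% intervals from limma, in 4 comparisons; filled points have an adjusted p under 0.05. Gzmk and Fasl are filled in both T cell comparisons, Nkg7 under vehicle and Eomes under ICA, and no gene is filled in either comparison of ICA with vehicle.

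To contrast the granzymes directly, the log2 difference of a pair was taken within each mouse and compared between groups by a two-sided exact permutation test. The pairs were Gzma minus Gzmb, Gzmk minus Gzmb and Gzma minus Gzmk, and each granzyme was also set against the mean of the CD3 chains. These 6 values in 4 comparisons gave 24 tests, adjusted together. With 24 tests a single comparison could reach an adjusted p of 0.19 at best, so none could pass alone. A change in such a value shows unequal change of its members and not which of them is more abundant.

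Relative to both other granzymes, Gzma had its lowest group mean in T cell ICA mice. Gzma minus Gzmb was at -0.38, -1.12, -0.65 and -0.35 in T cell vehicle mice and at -1.38, -0.84, -1.57, -2.14 and -1.53 in T cell ICA mice. The groups overlapped only through T cell vehicle mouse 2 and T cell ICA mouse 2. The difference was -0.87 (exact permutation p = 0.0317, adjusted p = 0.19). In marrow-only ICA mice the value ran from -0.89 to -0.49, and T cell ICA mice differed from them by -0.82 (exact permutation p = 0.0159, adjusted p = 0.19). In the vehicle arm the same pair differed by 0.27 between T cell and marrow-only mice (exact permutation p = 0.229, adjusted p = 0.422).

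Gzma minus Gzmk also had its lowest group mean in T cell ICA mice. It was at -0.47, -0.61, 0.32 and 0.31 in T cell vehicle mice and at -1.83, 0.00, -1.87, -1.78 and -1.32 in T cell ICA mice. T cell ICA mouse 2 stood with the vehicle mice, and the other 4 lay below all of them. T cell ICA mice differed from T cell vehicle mice by -1.25 (exact permutation p = 0.0476, adjusted p = 0.229) and from marrow-only ICA mice by -1.36 (exact permutation p = 0.0317, adjusted p = 0.19). None of these passed after adjustment. Gzmk minus Gzmb differed by 0.41 under vehicle and 0.54 under ICA between T cell and marrow-only mice (exact permutation p = 0.257 and 0.127, adjusted p = 0.441 and 0.305).

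Set against the CD3 chains, Gzmk did not overlap between T cell and marrow-only mice given ICA, but the difference did not pass after adjustment. Gzmk minus CD3 was at -0.54, -0.48, -0.67, -0.71 and -0.48 in marrow-only ICA mice and at 0.04, -0.07, 0.22, -0.01 and -0.15 in T cell ICA mice, with no overlap. The difference was 0.58 (exact permutation p = 0.00794, adjusted p = 0.19). With 5 mice a side no smaller p is possible. The share of all genes that separate once the CD3 mean is subtracted was not counted. The shares given above are for the signal itself and do not apply here. In the vehicle arm the difference in Gzmk minus CD3 was 0.09 (exact permutation p = 0.543, adjusted p = 0.724). Gzmb minus CD3 differed by -0.31 under vehicle and by 0.04 under ICA between T cell and marrow-only mice (exact permutation p = 0.171 and 0.897, adjusted p = 0.374 and 0.937). Gzma minus CD3 differed by -0.05 and -0.78 (exact permutation p = 0.80 and 0.0952, adjusted p = 0.914 and 0.254).

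**Figure D3:**
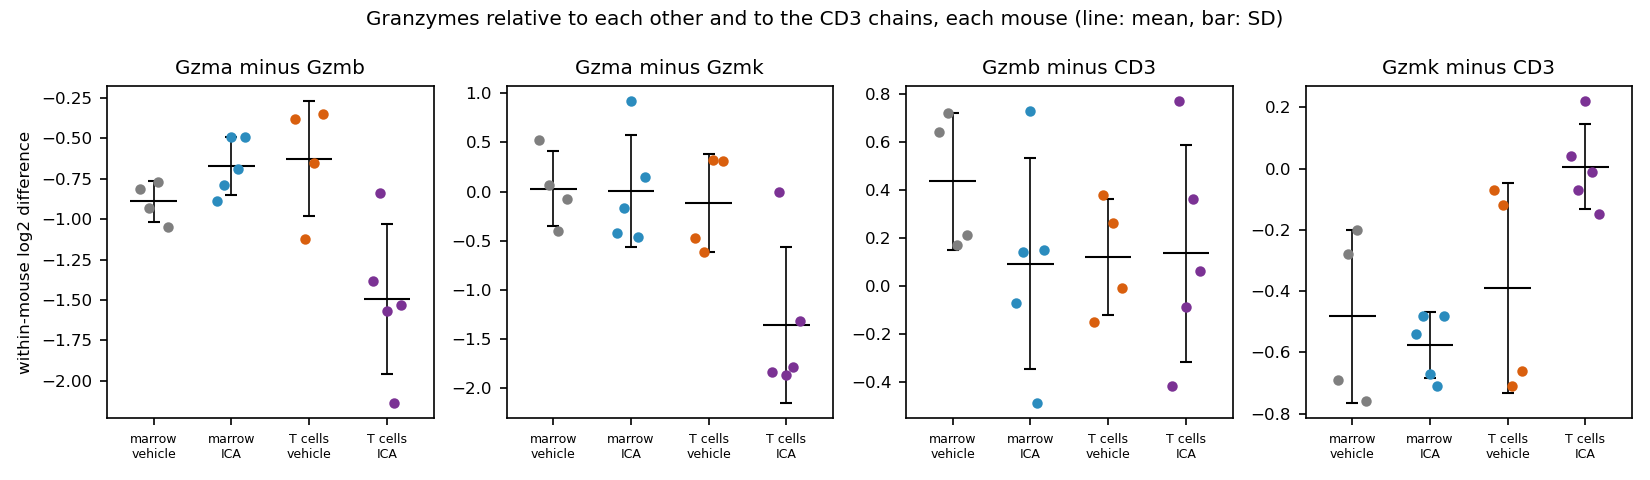
Within-mouse log2 differences of Gzma minus Gzmb, Gzma minus Gzmk, Gzmb minus CD3 and Gzmk minus CD3 for each mouse (points) by group, with the group mean (line) and SD (bar). In the second panel 4 of the 5 T cell ICA mice lie between -1.87 and -1.32 and mouse 2 is at 0.00. In the last panel the 5 T cell ICA mice (-0.15 to 0.22) lie above the 5 marrow-only ICA mice (-0.71 to -0.48). No difference between groups in these values passed after adjustment.

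Among the other killing molecules, Fasl, the ligand of the death receptor Fas, gave the clearest separation. It was at 5.86, 5.67, 5.25 and 5.35 in marrow-only vehicle mice and at 5.41, 6.17, 6.18, 5.51 and 6.17 in marrow-only ICA mice. It was at 6.18, 6.53, 6.86 and 6.60 in T cell vehicle mice and at 6.33, 6.70, 6.66, 6.69 and 6.67 in T cell ICA mice. All 9 T cell mice were above all 9 marrow-only mice, a separation that 0.144% of all genes showed upward, although the closest pair was 6.18 against 6.18 after rounding. Fasl rose by 1.01 ± 0.18 under vehicle, or 2.02-fold (limma adjusted p = 0.00732), by 0.72 ± 0.16 under ICA (adjusted p = 0.0161) and by 0.87 ± 0.12 in the mean of both (adjusted p = 0.000168). It passed in each of the 18 omissions of 1 mouse in the mean T cell effect (highest adjusted p = 0.000721).

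Nkg7, a membrane protein of cytotoxic granules, was at 8.48, 8.70, 7.88 and 8.23 in marrow-only vehicle mice and at 8.94, 9.78, 10.15 and 9.36 in T cell vehicle mice, with no overlap. In the ICA arm it was at 8.00, 9.31, 9.19, 8.23 and 9.14 without T cells and at 9.28, 9.72, 9.68, 9.55 and 9.38 with them, where T cell mouse 1 was below the highest marrow-only mouse. It rose by 1.23 ± 0.27 under vehicle, or 2.35-fold (limma adjusted p = 0.0241), and by 0.99 ± 0.18 in the mean of both (adjusted p = 0.00181). Under ICA its difference was 0.75 ± 0.24 (adjusted p = 0.104), and the change between treatments did not pass (interaction -0.49 ± 0.36, adjusted p = 0.826). Prf1, perforin, ranged from 6.71 to 7.20 and from 6.58 to 7.16 in marrow-only mice given vehicle and ICA, and from 6.88 to 7.71 and from 6.83 to 7.72 in the T cell mice. It rose by 0.42 ± 0.13 in the mean of both treatments (limma adjusted p = 0.0488) and in neither alone. This call was lost in 12 of 18 omissions of 1 mouse (highest adjusted p = 0.116), those of mouse 1 or 4 of either marrow-only group, mouse 2 of marrow-only vehicle, mouse 5 of marrow-only ICA and mouse 2, 3 or 4 of either T cell group.

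The transcription factors differed in their calls. Eomes was at 5.84, 5.34, 5.51 and 5.71 in marrow-only vehicle mice and at 5.98, 6.03, 6.42 and 6.11 in T cell vehicle mice, with no overlap. Under ICA it was at 5.68, 5.88, 5.80, 5.60 and 5.85 without T cells and at 5.78, 6.65, 6.76, 6.47 and 6.57 with them, where only T cell mouse 1 reached down into the marrow-only range. It rose by 0.68 ± 0.15 under ICA, or 1.61-fold (limma adjusted p = 0.0115), and by 0.61 ± 0.11 in the mean of both (adjusted p = 0.00165). Under vehicle the difference was 0.53 ± 0.16 (adjusted p = 0.114), and it passed without both arrays that stood apart (adjusted p = 0.0167). Both of those arrays are from ICA mice, so the vehicle difference itself did not involve them. Only the spread shared by all groups in the model and the adjustment changed. Tbx21, which encodes T-bet, ranged from 7.19 to 7.29 in marrow-only vehicle mice, from 7.03 to 7.69 in marrow-only ICA mice, from 7.15 to 7.80 in T cell vehicle mice and from 7.25 to 7.77 in T cell ICA mice. Its mean T cell effect was 0.16 ± 0.11 (95% interval -0.07 to 0.38, limma adjusted p = 0.481). The difference between the responses of Eomes and Tbx21 was not tested.

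Ifng, which encodes interferon gamma, was dim on the array, with 35.7% of genes at a lower mean. It ranged from 5.47 to 5.94 in marrow-only vehicle mice and from 5.76 to 6.75 in T cell vehicle mice. In ICA mice it ranged from 5.27 to 6.91 without T cells and from 5.57 to 6.73 with them. Its difference was 0.69 ± 0.31 under vehicle (limma adjusted p = 0.341) and 0.16 ± 0.28 under ICA (adjusted p = 0.839). Klrg1, an inhibitory receptor of late effector T cells and mature NK cells, ranged from 5.69 to 6.11 and from 5.72 to 6.39 in marrow-only vehicle and ICA mice, and from 6.02 to 6.43 and from 5.79 to 6.85 in T cell vehicle and ICA mice. It rose by 0.47 ± 0.13 in the mean of both treatments (limma adjusted p = 0.0265). That call was lost in 7 of 18 omissions (highest adjusted p = 0.0616), those of mouse 1 or 4 of marrow-only vehicle, mouse 1 or 3 of T cell vehicle and mouse 2, 3 or 5 of T cell ICA. Under ICA alone its difference was 0.58 ± 0.17 (adjusted p = 0.0668), and without both arrays that stood apart it was 0.70 (adjusted p = 0.00325). Fasl, Eomes and Klrg1 were about as dim as Ifng (33.8% to 37% of genes lower). Array signals near background understate fold changes, but whether these genes lay near background was not tested.

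Under vehicle the calls of Gzmk and Nkg7 were lost when certain single mice were left out, and that of Fasl was not. The count was 1 in place of 3 when mouse 1, 3 or 4 of marrow-only vehicle or mouse 2 or 3 of T cell vehicle was left out, and Fasl passed in each of the 8 omissions of a vehicle mouse. Gzmk was lost in 5 of these 8 omissions (highest adjusted p = 0.0759), and Nkg7 in 6 of 8, these 5 mice and T cell vehicle mouse 4 (highest adjusted p = 0.0981). Their differences stayed between 1.19 and 1.48 for Gzmk and between 1.04 and 1.44 for Nkg7 in the 8 omissions. Under ICA, Gzmk, Fasl and Eomes each passed in all 10 omissions of an ICA mouse (highest adjusted p = 0.0318, 0.0484 and 0.0402). In the mean of both treatments the same held for Gzmk, Fasl, Nkg7 and Eomes in all 18 omissions.

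The comparison of ICA with vehicle asks whether the treatment changed these genes. It shares groups with the comparisons above, so its values are not independent of theirs. With T cells 0 of 10 members passed in limma, and 0 had an unadjusted p under 0.05. Over all genes 0.0135% passed and 6.89% had such an unadjusted p. The smallest p among the members was that of Eomes, at 0.31 ± 0.16 (95% interval -0.01 to 0.64, adjusted p = 0.745), where 4 of 5 ICA mice were above all 4 vehicle mice. No granzyme passed, with Gzma at -0.86 ± 0.47 (95% interval -1.85 to 0.13, adjusted p = 0.78), Gzmb at 0.01 ± 0.43 (adjusted p = 0.998) and Gzmk at 0.39 ± 0.26 (adjusted p = 0.822). Without T cell ICA mouse 2, the mouse with the highest Gzma of the study (8.81), the Gzma difference was -1.26 (adjusted p = 0.483). The interval for Gzmb, -0.88 to 0.90, leaves room for nearly a doubling in either direction. The members' median was 0.03, against -0.01 for all genes.

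Without T cells ICA likewise changed 0 of 10 members in limma, and 0 had an unadjusted p under 0.05 (0.00451% of all genes passed and 7.52% had such a p). Of the members 9 had a higher mean with ICA, with a median difference of 0.28 against 0.01 for all genes. The largest was Gzmk at 0.51 ± 0.26 (adjusted p = 0.671). The smallest p was that of Fasl, at 0.36 ± 0.17 (limma unadjusted p = 0.0528, adjusted p = 0.665). For Fasl, 3 of 5 ICA mice were above all 4 vehicle mice. The marrow-only ICA group was split in the same way for several genes. Mice 2, 3 and 5 had Gzmb at 8.56, 9.05 and 8.54 and mice 1 and 4 at 6.99 and 7.14, while the vehicle mice lay between 7.01 and 8.36. Each of the 10 members had the same 3 mice above the other 2. This split was picked from the same values, and the share of all genes that show it was not counted. The members also followed each other within groups, so these are not 10 separate observations. The CD3 chains showed the split too. They lay 0.45, 0.35 and 0.43 above the group mean in mice 2, 3 and 5, and 0.91 and 0.33 below it in mice 1 and 4. The interaction of ICA and T cells passed for 0 of 10 members and 0% of all genes, and 0 members had an unadjusted p under 0.05, against 6.68% of all genes.

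Mice of 1 group differed from each other in the cytotoxic genes as a set. All 10 members were above the group mean in mouse 3 of marrow-only ICA, T cell vehicle mouse 3 and T cell ICA mouse 2. None was above it in mice 1 and 4 of marrow-only ICA and mouse 1 of T cell ICA. After the group means were subtracted, the 45 pairs of members correlated over the 18 mice with r from 0.30 to 0.93 and a median of 0.67. Gzma and Gzmb were the closest pair (r = 0.93, rho = 0.91, and r = 0.89 without the 2 mice farthest from the median of Gzmb). All 3 granzymes also followed the CD3 chains. The values were r = 0.92 for Gzmb (rho = 0.90, and 0.89 without 2 mice), 0.88 for Gzmk (rho = 0.87, and 0.79) and 0.84 for Gzma (rho = 0.87, and 0.76). These are descriptions over mice that share an array per mouse and a tissue piece, and were not tested. No pairs of other genes were taken as a baseline, so whether such correlation is particular to the members is not known.

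**Figure D4:**
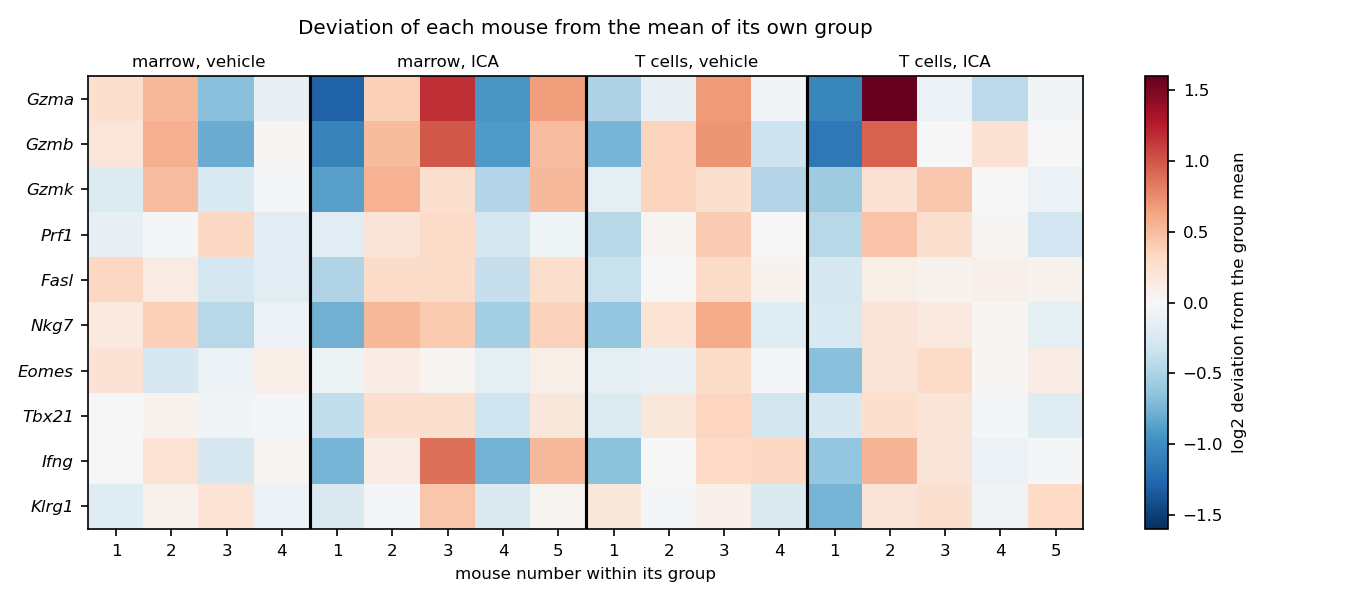
Deviation of each of the 10 genes (rows) from the mean of its own group in each of the 18 mice (columns), in log2 units on a colour scale from blue (below) to red (above). Whole columns share a colour, such as the blue columns of marrow-only ICA mice 1 and 4 and T cell ICA mouse 1 and the red columns of mouse 3 of marrow-only ICA and mouse 2 of T cell ICA.

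By the same measure, the genes outside the members that followed each granzyme most closely within groups were named. They were picked for the highest r among all other genes, so a high r is no finding by itself. Il2rb, a chain of the receptors for interleukins 2 and 15, Lcp1, an actin-bundling protein of leukocytes, and Batf2, a transcription factor, followed Gzmb (r = 0.95, 0.95 and 0.94 over 18 mice). Hif1a, the oxygen-regulated transcription factor, H2-DMb1, a peptide-loading chain, and Ciita, the activator of class II antigen presentation genes, followed Gzma (r = 0.93, 0.93 and 0.92). Gimap3, a GTPase of lymphocytes, and the surface receptors Slamf1 and Cd226 followed Gzmk (r = 0.92, 0.92 and 0.91). Of these, Cd226 rose in the mean T cell effect, by 0.96 ± 0.18 (limma adjusted p = 0.0024), and Batf2 fell by 0.20 ± 0.06 (adjusted p = 0.0408). The others did not pass.

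Genes around the members in the killing pathway were taken from fixed lists, each read in the mean T cell effect. Of 13 measured genes listed for granule packing and release, 5 rose and 0 fell, with a median of 0.05. Hcst, the adaptor of activating receptors and not itself a granule protein, rose by 0.25 ± 0.06 (limma adjusted p = 0.0183). Cst7, a cystatin that restrains granule cathepsins, rose by 0.53 ± 0.14 and Ctsh, a cathepsin, by 0.31 ± 0.08 (adjusted p = 0.0231 and 0.0267). Ctsw and Lamp1 also rose. The release genes Unc13d, Rab27a, Stx11, Stxbp2, Lyst and Vamp8 did not pass, with differences from -0.13 for Vamp8 to 0.05 for Stx11 and Lyst. The list of granzyme inhibitors held 6 measured serpins, of which Serpini1 and Serping1 are not established granzyme inhibitors. Of these 6, Serpinb9b rose by 0.36 ± 0.10 (adjusted p = 0.0397) and no other passed. Serpinb9, the inhibitor of granzyme B, differed by 0.01 ± 0.11 (adjusted p = 0.988). Of 9 genes of death ligands and the death receptor pathway 0 rose and 1 fell, Casp8, the caspase that Fas activates, by 0.22 ± 0.05 (adjusted p = 0.00973). Fas itself fell under ICA, by 0.44 ± 0.11 (adjusted p = 0.0341), and differed by 0.05 ± 0.13 under vehicle (adjusted p = 0.929). The change of this effect between treatments did not pass (interaction -0.49 ± 0.17, adjusted p = 0.71), nor did the mean of both (-0.20 ± 0.08, adjusted p = 0.185).

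Of 13 killer lymphocyte receptors 4 rose and 1 fell, with a median of 0.26. Klrc1, the NKG2A chain of an inhibitory receptor, rose by 1.11 ± 0.17 (limma adjusted p = 0.000387). Taken by treatment, it rose by 1.69 ± 0.26 under vehicle (adjusted p = 0.00179) and differed by 0.53 ± 0.23 under ICA (adjusted p = 0.244), and the interaction of -1.16 ± 0.34 did not pass (unadjusted p = 0.00288, adjusted p = 0.677). Cd226, an activating receptor, is given above. Ncr1, the NKp46 receptor that marks NK cells and related innate cells, fell by 0.46 ± 0.11 (adjusted p = 0.0105). Of 9 other effector transcription factors 3 rose and 0 fell, with Id2 at 0.41 ± 0.06, Bhlhe40 at 0.34 ± 0.07 and Stat4, which signals from the interleukin 12 receptor, at 0.66 ± 0.18 (adjusted p = 0.000297, 0.00384 and 0.0266). Id2 and Bhlhe40 also rose under vehicle, by 0.61 ± 0.09 and 0.59 ± 0.10 (adjusted p = 0.00179 and 0.00563), and differed by 0.21 ± 0.08 and 0.09 ± 0.09 under ICA (adjusted p = 0.185 and 0.698). Their interactions did not pass (adjusted p = 0.684 and 0.677). Of 15 genes that induce interferon gamma or carry its signal 0 rose and 1 fell, Il18, an epithelial cytokine that induces interferon gamma, by 1.45 ± 0.16 (adjusted p = 2e-05). All these shares stand against 3.58% of all genes that rose and 3.62% that fell.

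Markers of other cells moved as follows in the mean T cell effect. Of 11 measured T cell markers 7 rose and 0 fell, with a median of 0.50. Cd8b1 and Cd8a, the chains of the CD8 co-receptor, rose by 1.97 ± 0.13 and 2.00 ± 0.16 (limma adjusted p = 5.84e-08 and 7.53e-07), and Cd4 differed by -0.43 ± 0.14 (adjusted p = 0.0723). Under vehicle 4 of the 11 rose, and under ICA 2 rose and 1 fell, Cd4, by 0.71 ± 0.19 (adjusted p = 0.0448). Of 7 NK cell markers 1 rose, the chemokine Xcl1, which CD8 T cells also make, by 0.82 ± 0.18 (adjusted p = 0.00667). Ncr1 fell, and Klrb1c, the NK1.1 antigen, differed by -0.10 ± 0.12 (adjusted p = 0.739). The mean of the 7 NK cell markers lay between 5.84 and 6.16 in every mouse of the 4 groups. It joins Xcl1 and Ncr1, which moved in opposite directions, with dim markers. Group means were 4.66 to 4.84 for Klre1, 4.89 to 5.03 for Klri2 and 5.21 to 5.42 for Klrb1c. The list mean therefore cannot show whether NK cell content stayed the same. All 7 macrophage markers rose (median 0.52), 3 of 5 B cell markers fell (median -0.71), 1 of 6 neutrophil markers rose, and 0 of 8 epithelial markers passed. Of 6 mast cell markers 0 passed in the mean of both treatments, but the arms differed in sign. The list mean was 6.56 ± 0.14 (SD, n = 4) in marrow-only vehicle mice and 5.58 ± 0.26 (SD, n = 4) in T cell vehicle mice, and under ICA 6.08 ± 0.46 and 6.50 ± 0.36 (SD, n = 5 each). The mast cell proteases Mcpt1 and Mcpt2 both fell under vehicle, where Mcpt1 fell by 2.44 ± 0.47 and Mcpt2 fell by 2.41 ± 0.53 (limma adjusted p = 0.0127 and 0.0244). They differed by 0.75 ± 0.42 and 0.49 ± 0.47 under ICA (adjusted p = 0.40 and 0.681). With T cells, ICA mice differed from vehicle mice by 2.06 ± 0.45 for Mcpt1 and 1.89 ± 0.50 for Mcpt2 (adjusted p = 0.204 and 0.339). The interactions, 3.19 ± 0.63 and 2.90 ± 0.71, did not pass (unadjusted p = 6.03e-05 and 0.000572, adjusted p = 0.669 and 0.677). The part of these cell types in the results on the members was not tested.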

How the data were processed

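Ileal RNA of each mouse, extracted with Trizol and labelled with the Ambion WT kit per the labels, was measured on 1 whole-transcript array. The deposited log2 values were made by the authors with RMA, per the submitters' processing notes, which also name Partek and GenomeStudio. No software version is given there, and the log base was read from the range of the values. Arrays give no read depth, so the number of mice limits the precision.

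Of 41345 probe sets, 23521 carried 1 symbol in the platform annotation, 1814 several and 16010 none. Genes with several probe sets took the one with the highest mean, which left 22180. The values were fitted without further normalization in limma 3.58.1 (R 4.3.3, lmFit and eBayes with trend), as 1 model of 4 group means over 18 mice. P-values were two-sided, adjusted by Benjamini-Hochberg over all genes for each comparison, with a threshold of 0.05. The labels call each sample a biological replicate. Neither scan dates nor cages are named there, so batches were not tested. Differences between granzymes within a mouse were compared by exact permutation tests. The CD3 mean was planned over 4 chains, and Cd247 was not analysed here. Fits were tested on simulated data with known changes.

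The members and the gene lists were chosen with earlier results of these data known, and the lists support nothing on their own. Named genes were the 10 members, up to 3 genes of each list with the smallest p among those that passed in the mean T cell effect, the CD3 chains and defining markers set beside a result, and the 3 genes most like each granzyme. Serpinb9, Fas, Cd4, Klrb1c, Mcpt1, Mcpt2 and the range of the other granzymes were added after their values were seen. So were Ctsw, Lamp1, the release genes named beside them, and the levels of dim granzymes and NK cell markers. Alternatives were other normalizations, probe set rules, priors, array weights, models, a replicate block and the omission of each mouse. A fit without both arrays that stood apart was chosen after seeing the data.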

Additional observations from a re-analysis of the deposited data

Results flagged for a closer look

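Of 40 checks of a member within a group of 4 or 5 mice, 1 found a mouse far from the rest. Fasl was at 6.33 in T cell ICA mouse 1, while the other 4 mice of the group lay between 6.66 and 6.70. The gap was 0.892 of the group's range, above the critical value of 0.710 for 5 samples. Chance marks about 1 in 20 such groups. The same mouse had none of the 10 members above its group mean and was 1 of the 2 arrays that correlated least with their own group.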

How the results depend on the processing

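No member passed in either ICA comparison or in the interaction under any alternative. Under vehicle the 3 members called became 5 with only the groups compared in the model (Gzma and Eomes added, adjusted p = 0.0298 and 0.0453), 1 with all probe sets tested and 1 with a robust prior, and 1 to 4 when each mouse was left out. Adjusted p-values of the lost calls were 0.0525 and 0.0591 for Gzmk and 0.0599 and 0.0696 for Nkg7. The mean T cell effect gave 4 to 6 members under the alternatives and 4 to 7 in the omissions. Prf1 was lost there with median centring (adjusted p = 0.0511), all probe sets (0.0949), no trend (0.0604) and a robust prior (0.0601), and Klrg1 with all probe sets (0.0575). Of 25 same-numbered pairs of mice, 3 had r over 0.1 after the group means were subtracted. Pairs with unlike numbers were not checked, so whether replicate numbers pair the mice was not settled. With the replicate block, 5 members in place of 3 passed under ICA (Klrg1 and Prf1 added, adjusted p = 0.0285 and 0.0495), and 0 of the 24 granzyme contrasts passed. The block also turned the ICA difference of Gzmb with T cells to -0.05 and of Prf1 without T cells to 0.03. Array weights turned the Prf1 interaction to 0.01. Without both arrays that stood apart, 5 values turned sign. They were Nkg7 and Prf1 for ICA with T cells (0.02 and 0.06), Prf1 for ICA without T cells (0.03), the Prf1 interaction (0.03) and Gzma minus Gzmk for ICA without T cells (0.08). None of these values passed in any setting, and the causes were not tested. Values that did not pass and turned sign when 1 mouse was left out had the following ranges. The T cell effect under ICA ranged from -0.57 to 0.12 for Gzma, -0.03 to 0.38 for Ifng and -0.01 to 0.16 for Tbx21. ICA with T cells ranged from -0.05 to 0.17 for Fasl, -0.24 to 0.30 for Gzmb, -0.24 to 0.16 for Nkg7, -0.20 to 0.08 for Prf1 and -0.05 to 0.17 for Tbx21. ICA without T cells ranged from -0.05 to 0.13 for Klrg1 and -0.09 to 0.10 for Prf1. The interaction ranged from -0.52 to 0.03 for Gzmb, -0.34 to 0.02 for Gzmk and -0.18 to 0.10 for Prf1. Gzma minus Gzmk ranged from -0.28 to 0.03 for T cells under vehicle and -0.25 to 0.14 for ICA without T cells. Gzma minus CD3 ranged from -0.17 to 0.05 and -0.32 to 0.03 in the same comparisons. Gzmb minus CD3 ranged from -0.12 to 0.20 for T cells under ICA and -0.15 to 0.15 for ICA with T cells, and Gzmk minus CD3 from -0.02 to 0.20 for T cells under vehicle. Over all genes, the counts called ranged from 204 to 1074 under vehicle (main 327), 321 to 1446 under ICA (693) and 1388 to 2543 in the mean T cell effect (1599) across the alternatives.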
